A study of Mus musculus with 47 samples.

Results

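Young mice given PF4 were compared with young mice given vehicle (Veh) by RNA sequencing of the hippocampus. The comparison used 25 of the 47 libraries in the count table, 12 labelled Young PF4 and 13 labelled Young Veh, and these were taken by the age group and treatment in the labels, without any measured value. Both groups were male C57BL/6J mice with no genetic change. The labelled age ranged from 3.75 to 5.26 months in Young Veh (median 4.83) and from 4.08 to 5.03 months in Young PF4 (median 4.815), a difference smaller than its spread between mice (two-sided permutation test, p = 0.791). PF4 was the mouse protein, injected intraperitoneally at 20 μg per kg each day, 1 hour before training or testing, and the control mice went through the same behavioral testing after injections of vehicle. The 22 libraries of aging mice entered the same statistical fit and are used below only where young and aging mice are set side by side.

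PF4, also called CXCL4, is a chemokine that platelets store in their α-granules and release when activated. It binds heparan sulfate chains on cell surfaces with high affinity, and several receptors have been described for it, among them CXCR3 on leukocytes and members of the integrin family. The hippocampus encodes spatial memory, and long-term potentiation (LTP) of its excitatory synapses depends on NMDA receptors, in which the GluN2B subunit is encoded by Grin2b. LTP can be altered by receptor phosphorylation and trafficking without a change in RNA, so the RNA level of a synaptic gene is only part of what sets the strength of a synapse.

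Each library held the RNA of 1 hippocampus, made into full-length cDNA and sequenced without strand information. The young libraries held between 2242879 and 19508854 counted reads (median 11411590), and 3 of them, 1 Young Veh and 2 Young PF4, held fewer than 5000000. Without strand, reads of overlapping genes cannot be told apart, and among the genes named below this also touches Grin1, Grin2d, Grin3b, Alas2, C2, Dlg2, Gp1bb and Zfp106, which overlap genes with many reads. Total counts did not differ between the groups beyond their spread (medians 12203163 in Young Veh and 10515336 in Young PF4, two-sided permutation test, p = 0.205). The library numbers in the labels did differ, with a mean of 32.6 in Young Veh and 39.7 in Young PF4 (two-sided permutation test, p = 0.0156), and the labels do not say what the number stands for. The fit with library number as a covariate was made on the young libraries alone. In it the median of 26 of the 53 lists described below took the other sign. Against the young libraries alone without the covariate, a fit that by itself turned 2, the number was also 26. Of the 53 lists, 36 took the other sign with some 1 young library left out, so that the signs of small list medians carry no direction here. Values from the fit with library number are given beside some of the lists and genes, not all. The markers of hippocampal neurons were at high levels in both groups, among them Prox1 of dentate granule neurons with 103 ± 13.3 CPM (reads scaled to a common library total; SD, n = 13) in Young Veh and 105 ± 10.2 CPM (SD, n = 12) in Young PF4, and Wfs1 of CA1 pyramidal neurons with 138 ± 20.95 and 138 ± 21.9 CPM.

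No gene passed the test for PF4 in young hippocampus. Each of the 17778 genes with enough reads was tested by the quasi-likelihood method of edgeR, the threshold for a call was 0.05 after Benjamini-Hochberg adjustment, and the smallest adjusted p was 0.99996. The share called was thus 0% over all genes, and it was also 0% over the 713 different genes tested from the lists described below. At an unadjusted p below 0.05 there were 213 genes (1.20%), fewer than the 5% that evenly spread p-values would give. Of these, 127 (0.714% of all genes tested) were lower and 86 (0.484%) were higher with PF4 by estimate. DESeq2's test and limma's test on voom weights also called 0 genes, with 291 and 465 genes at an unadjusted p below 0.05. In 0 of the genes tested did every Young PF4 mouse lie outside the range of the Young Veh mice. A log2 fold change below is that of Young PF4 against Young Veh, and a negative value means a lower level with PF4.

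The estimates were small and, for most genes, closely bounded. The median absolute log2 fold change was 0.04, against a median standard error of 0.084. The 95% interval of the log2 fold change lay within ±0.5, which is 1.41-fold in either direction, for 15110 genes (85.0%). It lay within ±0.25 (1.19-fold) for 10335 genes (58.1%) and within ±1 (2-fold) for 17538 genes (98.7%), so that 240 genes had an interval reaching past a 2-fold difference. When intervals were widened to hold for all genes at once, by the Bonferroni method, 9059 genes (51.0%) stayed within 1.41-fold and 14441 (81.2%) within 2-fold.

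The bound tightened with the level of the gene. In the 25% of genes with the lowest levels, from 0.651 to 4.22 CPM, the median half-width of the 95% interval was 0.40 on the log2 scale, and 44.9% of genes were bounded within 1.41-fold. In the 25% with the highest, from 54.8 CPM upward, the median half-width was 0.10, a 1.07-fold difference, and 99.8% of genes were bounded within 1.41-fold. Of the 6630 genes with a mean of at least 5 log2 CPM, 6607 had an interval within 1.41-fold and 8 had one that reached past 2-fold. A typical half-width was thus 1.07-fold in an abundant gene and 1.32-fold in a gene of the lowest group. A difference within it could not be told from none at this depth and number of mice. These half-widths are not the limit for a call after adjustment. Gm37769 and Usp18, described below, had intervals with both ends negative and were not called.

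**Figure D1:**
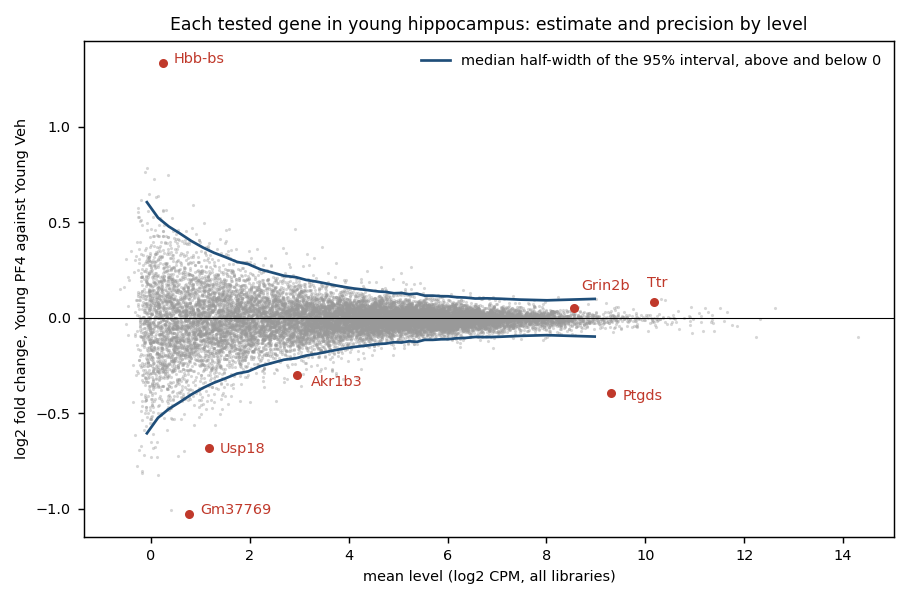
Log2 fold change of Young PF4 against Young Veh (vertical axis) for each of the 17778 genes tested, by mean level in log2 CPM over all libraries (horizontal axis). Blue lines give the median half-width of the 95% interval above and below 0, which falls from 0.40 in the 25% of genes with the lowest levels to 0.10 in the 25% with the highest, and red points are genes named in the text, of which Gm37769, Hbb-bs and Usp18 lie outside the lines at low levels.

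Pf4 itself, which in the brain can come from platelets left in vessels or from macrophages, was near the lower limit of measurement. It ranged from 0.332 to 1.57 CPM in Young Veh (median 0.697) and from 0.245 to 2.35 CPM in Young PF4 (median 0.728). The groups overlapped, and the log2 fold change was -0.16 with a 95% interval from -0.79 to 0.47. The injected agent was a protein, so these reads do not measure it. Kl, which encodes the hormone klotho and is made in the brain mainly by the choroid plexus, ranged from 16.7 to 198 CPM in Young Veh (median 130.5) and from 23.98 to 204 CPM in Young PF4 (median 135.5). Its log2 fold change of 0.13 had a 95% interval from -0.76 to 1.01. Kl varied widely within both groups, as the choroid plexus markers described below did.

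Of the 18 receptors and binding partners listed for PF4, 16 had enough reads to be tested, 9 were higher and 7 lower by estimate, and 0 were called. Their median log2 fold change was 0.01, against -0.01 over all genes tested. Cxcr3, the chemokine receptor, was not tested, having 5 reads in all over the 13 Young Veh mice and 3 over the 12 Young PF4 mice. The smallest p among the tested members belonged to Thbd, thrombomodulin, the endothelial cofactor that turns thrombin toward activation of protein C. Thbd ranged from 13.8 to 35.9 CPM in Young Veh (median 18.3) and from 12.6 to 27.8 CPM in Young PF4 (median 16.3), with a log2 fold change of -0.27 (95% interval -0.60 to 0.07). Those ranges overlapped over most of their length. Sdc2, syndecan 2, a cell-surface heparan sulfate proteoglycan, had a log2 fold change of 0.10 (95% interval -0.07 to 0.28).

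The NMDA receptor subunits were closely bounded. All 7 subunits were tested, 6 were higher and 1 lower by estimate, 0 were called, and each of the 7 intervals lay within 1.41-fold. Grin2b, which encodes GluN2B, ranged from 257 to 402 CPM in Young Veh (median 355) and from 305 to 402 CPM in Young PF4 (median 369.5). Almost every Young PF4 mouse fell inside the Young Veh range. The log2 fold change of Grin2b was 0.05 with a 95% interval from -0.08 to 0.17, which leaves room for a difference of at most about 1.13-fold in either direction. Grin1, which encodes the GluN1 subunit that every NMDA receptor needs, ranged from 266 to 476 CPM in Young Veh (median 431) and from 351 to 485 CPM in Young PF4 (median 429.7), with a log2 fold change of 0.02 (95% interval -0.14 to 0.17). Grin2a, which encodes the GluN2A subunit that prevails in the mature forebrain, ranged from 468 to 736 CPM in Young Veh (median 496) and from 402 to 568 CPM in Young PF4 (median 508.5). The medians lay in the opposite order to the log2 fold change of -0.05 (95% interval -0.19 to 0.09), and the groups overlapped. The log2 fold changes of the less abundant subunits Grin2c, Grin2d, Grin3a and Grin3b lay between 0.01 and 0.04, and the sign of the list's median, 0.03, turned to -0.01 with library number as a covariate and to -0.00 without Young Veh replicate 4.

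AMPA receptor subunits, which carry most of the fast excitatory current, gave the narrowest score interval of the receptor families. The 4 subunits had log2 fold changes between -0.07 and 0.00, and 0 were called. Gria2, which makes the receptor impermeable to calcium, ranged from 1294 to 1479 CPM in Young Veh (median 1347) and from 1104 to 1458 CPM in Young PF4 (median 1360). In 3 Young PF4 mice Gria2 was below every Young Veh mouse, and its log2 fold change was -0.02 (95% interval -0.11 to 0.06). Gria4 had the lowest estimate, -0.07 (95% interval -0.18 to 0.04), and Gria1, the subunit inserted during LTP, had a log2 fold change of 0.00 (95% interval -0.09 to 0.09). The mean level of the 4 subunits, computed in each mouse as a score in log2 CPM, was 8.26 ± 0.027 (SD, n = 13) in Young Veh and 8.23 ± 0.048 (SD, n = 12) in Young PF4. This difference, -0.03 (95% interval -0.06 to -0.00), was the only one of 53 list scores whose interval did not include 0. It was -0.02 (95% interval -0.05 to 0.01) without the 3 young libraries below 5000000 counted reads, and its interval included 0 with 13 of the 25 young libraries left out in turn. The median log2 fold change of the 4 subunits, -0.03, was -0.01 without Young PF4 replicate 8, 1 of those 3 libraries, -0.01 without Young Veh replicate 4, and -0.00 without all libraries below that depth.

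The signalling genes of LTP were bounded as closely by their score. Of the 26 LTP signalling genes, which include the CaM kinases, protein kinases A and C, calcineurin and calmodulin, 8 were higher and 18 lower by estimate, 0 were called, and all 26 intervals lay within 1.41-fold. The lower share, 69.2%, stood against 54.3% over all genes tested, and the median log2 fold change was -0.01. The smallest p of the list belonged to Ppp1r1a, inhibitor 1 of protein phosphatase 1, with a log2 fold change of -0.11 (95% interval -0.30 to 0.08). Prkaca, the main catalytic subunit of protein kinase A, had one of -0.04 (95% interval -0.10 to 0.03). The score of this list was 8.44 ± 0.026 log2 CPM in Young Veh and 8.43 ± 0.042 in Young PF4, a difference of -0.01 (95% interval -0.04 to 0.02).

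Of 21 postsynaptic density scaffolds, 14 were higher and 7 lower by estimate, with a median log2 fold change of 0.02 and 0 called. Dlg4, which encodes the scaffold PSD-95, ranged from 79.2 to 119 CPM in Young Veh (median 101) and from 82.2 to 124 CPM in Young PF4 (median 115). It exceeded the Young Veh median in 9 of 12 Young PF4 mice, the groups overlapped, and its log2 fold change was 0.10 (95% interval -0.05 to 0.25). The 19 genes of presynaptic vesicle release had a median of 0.00, with Snap25, a SNARE protein of the presynaptic membrane, at -0.03 (95% interval -0.17 to 0.12). The medians were -0.02 for 12 GABA-A receptor subunits, 0.01 for 17 voltage-gated channels, 0.04 for 5 kainate receptor subunits and -0.02 for 7 metabotropic glutamate receptors. These 4 lists held 0 called genes, and every member's interval lay within 1.41-fold. The medians of the kainate receptor, scaffold, vesicle release and channel lists took the other sign with library number as a covariate, at -0.03, -0.01, -0.01 and -0.03.

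**Figure D2:**
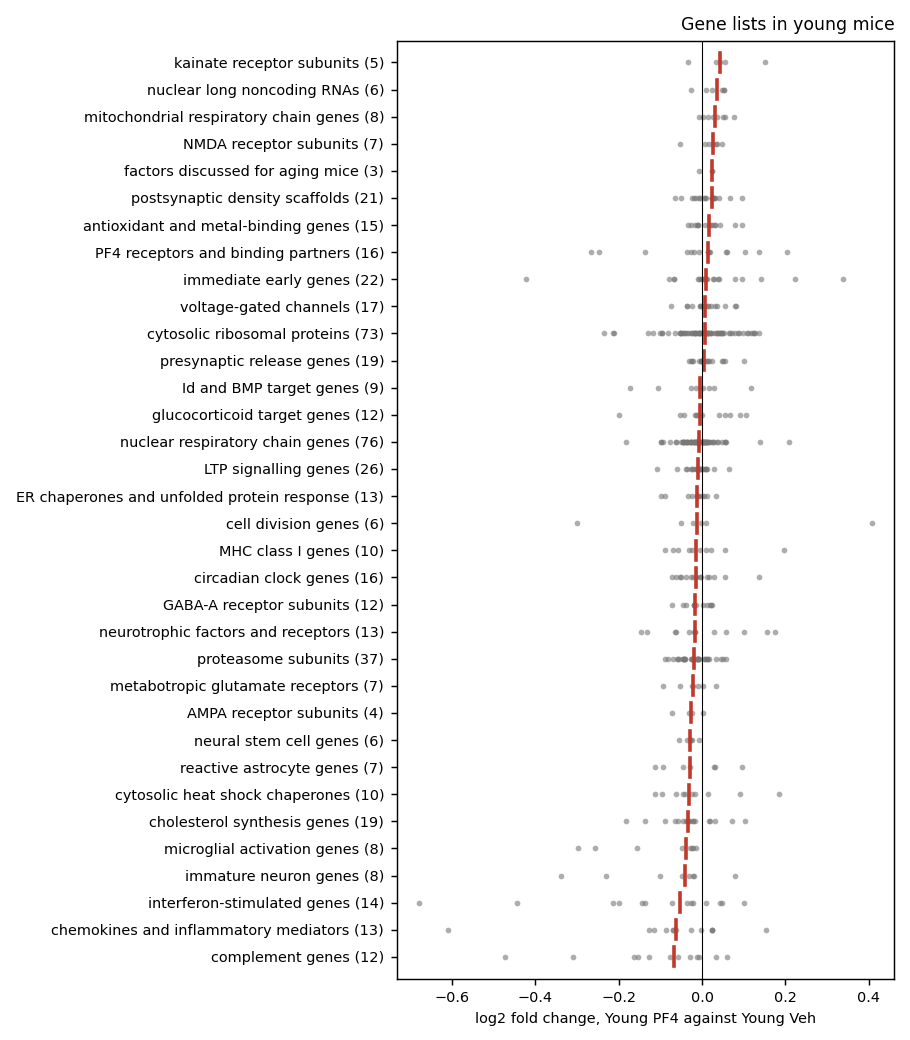
Log2 fold change of Young PF4 against Young Veh (horizontal axis) for each tested member (grey points) of 34 gene lists, with the list's median (red line) and the number of tested members in brackets. The medians lie between -0.07 for complement genes and 0.04 for kainate receptor subunits, and the widest spread of members is in the interferon, chemokine, cell division and immediate early gene lists.

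Immediate early genes are transcribed within minutes of neuronal firing. Of the 22 listed, 15 were higher and 7 lower by estimate, the median log2 fold change was 0.01, and 0 were called. Npas4, a transcription factor induced by calcium entry into neurons, ranged from 1.14 to 4.64 CPM in Young Veh (median 2.53) and from 0.372 to 3.74 CPM in Young PF4 (median 1.54). It had the smallest p of the list, with a log2 fold change of -0.42 (95% interval -0.85 to 0.01, unadjusted p = 0.0533 from edgeR's quasi-likelihood test). Egr2 and Fos had estimates above 0. Egr2, a zinc finger transcription factor, ranged from 0.512 to 3.63 CPM in Young Veh (median 1.31) and from 0.965 to 3.78 CPM in Young PF4 (median 1.93), with a log2 fold change of 0.34 (95% interval -0.16 to 0.83). Fos, a subunit of the transcription factor AP-1, ranged from 4.78 to 18.1 CPM in Young Veh (median 8.41) and from 6.62 to 17.5 CPM in Young PF4 (median 10.1), with a log2 fold change of 0.22 (95% interval -0.10 to 0.55) that was 0.02 with library number as a covariate. The groups overlapped for all of Npas4, Egr2 and Fos.

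Over all lists 8 of the 713 different genes (1.12%) had an unadjusted p below 0.05 in edgeR's test, close to the 1.20% over all genes tested, and 3 of the 8 were interferon-stimulated genes. The list has 15 genes, of which 14 were tested, 4 were higher and 10 lower by estimate, 3 had an unadjusted p below 0.05, all with estimates below 0, and 0 were called. Over all genes tested 0.714% were lower at that p. The lower share was 71.4%, against 54.3% over all genes. Many of these genes are switched on when the transcription factor complex ISGF3 binds the interferon-stimulated response element in their promoters. That element holds pairs of GAAA separated by a pair of any bases. The letters GAAA, NN (any bases) and GAAA in a row, or TTTC, NN and TTTC for the other strand, were searched in the 250 bases before each gene's start in RefSeq's promoter windows of GRCm38.p6. They occur in 978 of 32851 windows (2.98%), and in those of 4 of the 11 interferon-stimulated genes that have a window, Ifit1, Ifit3, Isg15 and Bst2. Usp18 has no window in that table. The stretches around the matches are shown 5′ to 3′ on the gene's own strand for the 3 of these genes that were tested, with the matches in capitals, since these letters are what ISGF3 recognises.
Ifit1, chr19:34640770-34640828, plus strand, from 119 to 61 bases before the start: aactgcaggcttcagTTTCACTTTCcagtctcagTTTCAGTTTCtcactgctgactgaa
Ifit3, chr19:34583358-34583431, plus strand, from 171 to 98 bases before the start: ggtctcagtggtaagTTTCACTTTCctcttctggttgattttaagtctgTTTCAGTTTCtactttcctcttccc
Bst2, chr8:71537572-71537617, minus strand, from 145 to 100 bases before the start: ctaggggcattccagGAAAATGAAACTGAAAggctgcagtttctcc
Ifit1 and Ifit3 hold 2 separate matches each, and in Bst2 the 2 matches overlap. A match describes the letters and is no evidence of binding.

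Usp18, a protease that removes the ubiquitin-like modifier ISG15 from proteins and dampens the interferon receptor, had the smallest p of the list. It ranged from 1.66 to 3.14 CPM in Young Veh (median 2.18) and from 0.656 to 1.87 CPM in Young PF4 (median 1.32). Usp18 was below every Young Veh mouse in 9 of the 12 Young PF4 mice, and the remaining 3 overlapped the lowest Young Veh mice. Its log2 fold change was -0.68 (standard error 0.21, 95% interval -1.10 to -0.26), with an unadjusted p of 0.00197 and the same adjusted p as the smallest, 0.99996, in the quasi-likelihood test of edgeR (Benjamini-Hochberg adjustment). The estimate stayed between -0.74 and -0.62 with any 1 of the 25 young libraries left out, and was -0.55 with library number as a covariate. Usp18 lies on chromosome 6 at 121245906 to 121270917 (GRCm38, plus strand), where it overlaps the noncoding Gm44148 on the other strand. Over the young libraries Usp18 had 500 reads and Gm44148 had 50, which cannot be told apart by strand in these libraries.

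Ifit1, which binds viral RNA that lacks host methylation of its cap, ranged from 2.27 to 7.96 CPM in Young Veh (median 3.65) and from 1.70 to 5.02 CPM in Young PF4 (median 2.54). Its log2 fold change was -0.44 (95% interval -0.86 to -0.03, unadjusted p = 0.0369 from edgeR's quasi-likelihood test). In Ifit1 10 of 12 Young PF4 mice were below the Young Veh median, and the groups overlapped. The other genes with the response element letters gave -0.20 for Ifit3 (95% interval -0.49 to 0.10) and -0.02 for Bst2 (95% interval -0.53 to 0.49). Isg15, with 68 reads over the Young Veh mice and 55 over the Young PF4 mice, was not tested. The median over the 14 genes was -0.05, and it was 0.01 with library number as a covariate.

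**Figure D3:**
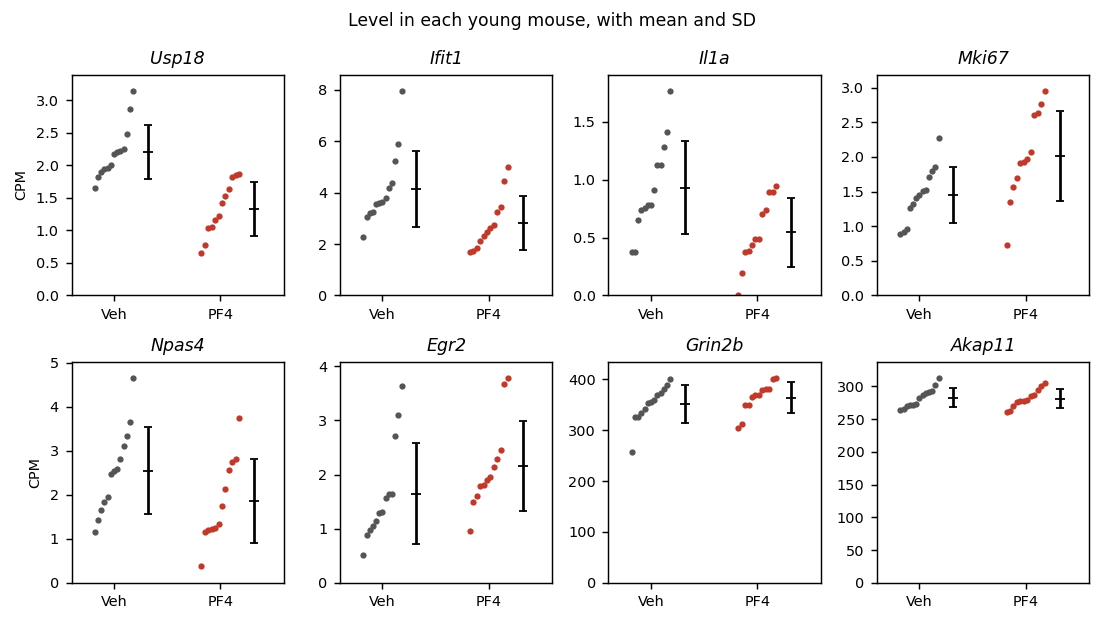
Level in CPM (vertical axis, from 0) of 8 genes in each Young Veh mouse (grey, n = 13) and each Young PF4 mouse (red, n = 12), with points spread sideways by rank and black bars giving the mean and SD. Usp18 has 9 of its 12 Young PF4 points below every Young Veh point, the other genes overlap more widely, and the groups overlap almost wholly for Grin2b and Akap11.

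The other immune lists held 0 called genes, and their score differences were smaller than their spread between mice. Over all genes tested, 54.3% of estimates were below 0. Of 25 chemokines and inflammatory mediators, 13 were tested, 4 were higher and 9 lower by estimate. Il1a, which encodes interleukin-1α and is made by microglia, ranged from 0.377 to 1.77 CPM in Young Veh (median 0.786) and from 0 to 0.945 CPM in Young PF4 (median 0.491), with a log2 fold change of -0.61 (95% interval -1.11 to -0.11, unadjusted p = 0.0162 from edgeR's quasi-likelihood test). The groups overlapped, with 2 Young PF4 mice below every Young Veh mouse. Il1a had 199 reads over the young libraries, and Gm14023, which it overlaps on the other strand, had 102. Tnf was listed at 0 reads in all young libraries, and Il6, Il1b and Ccl2 had too few reads to be tested, with 10, 22 and 23 reads over the Young Veh mice and 6, 12 and 6 over the Young PF4 mice. Of 12 complement genes, 10 were lower by estimate and the median was -0.07. C3, the central complement protein, ranged from 1.19 to 6.19 CPM in Young Veh (median 3.11) and from 1.13 to 4.05 CPM in Young PF4 (median 2.48), with a log2 fold change of -0.31 (95% interval -0.79 to 0.17). C2, a protease of the classical pathway, had the lowest estimate of that list, -0.47, with an interval from -1.15 to 0.20.

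All 8 tested microglial activation genes were lower by estimate, between -0.30 for Spp1, osteopontin, and -0.02, and the median was -0.04. Spp1 ranged from 5.02 to 39.3 CPM in Young Veh (median 11.1) and from 3.96 to 21.9 CPM in Young PF4 (median 13.2), so that the medians lay in the opposite order to the estimate. Apoe, the main lipid carrier of the brain, had a log2 fold change of -0.02 (95% interval -0.20 to 0.15). The 10 tested genes of MHC class I antigen presentation had a median of -0.01 and the 7 tested reactive astrocyte genes one of -0.03, with Gfap at -0.05 (95% interval -0.21 to 0.12). With library number as a covariate the median was 0.01 for chemokines and mediators, 0.02 for complement, 0.04 for microglial activation and 0.07 for MHC class I, the other sign in each, so that no direction can be given for these lists. The score differences, in log2 CPM, were -0.09 for chemokines and mediators (95% interval -0.19 to 0.02), -0.08 for complement (-0.28 to 0.12), -0.12 for interferon-stimulated genes (-0.28 to 0.03) and -0.10 for microglial activation (-0.36 to 0.17). Without a covariate, these intervals ended at 1.29-fold in either direction for the microglial activation list and at 1.22-fold or less for the other 3. Score intervals were not computed with library number as a covariate, so these limits do not allow for it.

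Genes of adult neurogenesis, the production of granule neurons in the dentate gyrus, had lower scores than the NMDA receptor subunits. In Young Veh the mean score was 2.64 log2 CPM for cell division, 3.98 for stem cell and 3.83 for immature neuron genes, against 5.86. Of 12 cell division genes, 6 were tested and 0 were called. Mki67, a marker of cells in cycle, ranged from 0.884 to 2.27 CPM in Young Veh (median 1.45) and from 0.731 to 2.95 CPM in Young PF4 (median 1.95). It exceeded the whole Young Veh range in 4 of 12 Young PF4 mice, with a log2 fold change of 0.41 (95% interval 0.03 to 0.78, unadjusted p = 0.0327 from edgeR's quasi-likelihood test). Top2a, topoisomerase IIα, which is made in the same phases of the cycle, leaned the other way by estimate. It ranged from 0.245 to 2.65 CPM in Young Veh (median 1.11) and from 0.351 to 1.29 CPM in Young PF4 (median 0.835), with a log2 fold change of -0.30 (95% interval -0.83 to 0.23). The median over the 6 genes was -0.01.

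Of the 8 tested immature neuron genes, 7 were lower by estimate, with a median of -0.04 and 0 called. Dcx, doublecortin, the most used marker of newborn neurons, was the exception. It ranged from 13.1 to 19.8 CPM in Young Veh (median 14.3) and from 13.0 to 19.1 CPM in Young PF4 (median 15.8), with a log2 fold change of 0.08 (95% interval -0.09 to 0.24). A difference in Dcx of more than 1.18-fold upward was thus outside the interval. The score of the list was bounded less closely, with a difference of -0.10 (95% interval -0.34 to 0.14). Of the 8 members, 6 had an interval within 2-fold, and the lowest estimate was -0.34. The 6 tested neural stem cell genes were all lower by estimate, between -0.05 and -0.01. The 9 Id and BMP target genes had a median of -0.00, and the 13 tested neurotrophic factors and receptors one of -0.02.

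Marker genes of the resident cell types listed in this paragraph, and of the adjoining cortex, gave medians within 0.05 of 0. Those of perivascular macrophages, at -0.09, and of fibroblasts, at -0.20, lay further out and are described below. In bulk tissue, fewer cells of a type and less RNA per cell cannot be told apart. The medians were -0.02 for dentate granule neurons (10 markers), 0.02 for CA1 pyramidal neurons (7), -0.02 for CA2 (6), -0.03 for CA3 (5), 0.01 for interneurons (15) and 0.01 for the adjoining cortex (6). They were -0.01 for astrocytes (15), -0.04 for oligodendrocytes (15), 0.02 for oligodendrocyte precursors (10), 0.00 for microglia (14), 0.02 for endothelial cells (15), -0.00 for pericytes and smooth muscle (12) and -0.03 for ependymal cells (9). No marker in these lists was called.

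The scores per mouse, computed without a covariate, bound the mean RNA level of the markers, not the number of cells. The astrocyte score was 7.83 ± 0.034 log2 CPM in Young Veh and 7.82 ± 0.081 in Young PF4, a difference of -0.01 (95% interval -0.06 to 0.04). The microglia score was 4.54 ± 0.053 log2 CPM in Young Veh and 4.53 ± 0.080 in Young PF4, a difference of -0.02 (95% interval -0.07 to 0.04). The interneuron score differed by 0.01 (95% interval -0.04 to 0.06) and the dentate granule neuron score by -0.02 (95% interval -0.12 to 0.08). Over these 4 scores the intervals ran from 0.918-fold to 1.06-fold at their widest. The bounds were 0.942-fold to 1.06-fold for CA1 neurons and 0.929-fold to 1.04-fold for CA2 neurons. They were looser for some other resident types, from 0.876-fold to 1.05-fold for CA3 neurons, from 0.937-fold to 1.10-fold for oligodendrocyte precursors, from 0.918-fold to 1.10-fold for endothelial cells, from 0.867-fold to 1.21-fold for pericytes and smooth muscle, and from 0.792-fold to 1.17-fold for ependymal cells.

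Oligodendrocyte markers spread over a wider range in Young PF4. The score ranged from 7.24 to 7.56 log2 CPM in Young Veh (median 7.40) and from 6.83 to 7.77 in Young PF4 (median 7.35). The Young Veh range lay wholly inside that of Young PF4, and the difference was -0.04 (95% interval -0.18 to 0.10). Of the 15 markers 13 were lower by estimate, and the lowest was Opalin, a membrane protein of myelinating cells, with 23.6 to 39.1 CPM in Young Veh (median 28.5) and 19.3 to 35.8 CPM in Young PF4 (median 26.5). The log2 fold change of Opalin was -0.12 (95% interval -0.31 to 0.07). The median of the 15 markers, -0.04, was 0.01 without Young PF4 replicate 11 and -0.08 without Young PF4 replicate 8, so that single libraries set its sign and size.

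**Figure D4:**
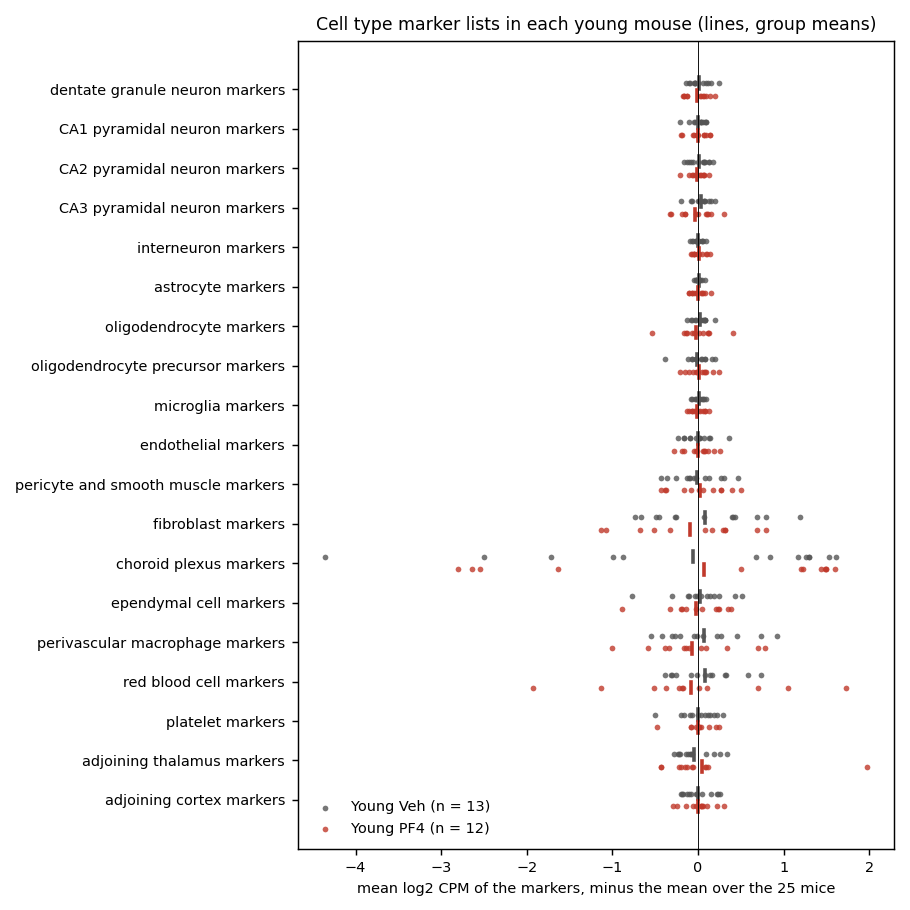
Mean log2 CPM of the tested markers of 19 cell type or region lists in each young mouse, minus the mean over the 25 mice (horizontal axis), for Young Veh (grey, n = 13) and Young PF4 (red, n = 12), with group means as short lines. Choroid plexus markers span more than 4 units in each group, and single Young PF4 libraries stand apart for thalamus and red blood cell markers.

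Among the 53 lists with a tested member, 49 had a median within 0.1 of 0, and the other 4 mark tissue at the edge of a hippocampal dissection or blood. All 10 choroid plexus markers were higher by estimate, with a median of 0.15, and 0 were called. That median was 0.03 without Young PF4 replicate 3 and 0.30 without Young Veh replicate 4, the lowest and highest with 1 library left out, 0.29 with library number as a covariate. Over all other settings it lay between -0.01, with the first surrogate variable as a covariate, and 0.41, with the replicate block. Their score ranged from -0.13 to 5.84 log2 CPM in Young Veh (median 5.07) and from 1.42 to 5.83 in Young PF4 (median 5.44), and the difference was 0.13 with a 95% interval from -1.43 to 1.68. None of the 10 had an interval within 2-fold. Their mean varied with an SD of 1.88 log2 CPM among Young Veh mice and 1.87 among Young PF4 mice, so that the markers varied together and their 10 signs are not separate observations. Ttr, transthyretin, a major product of the choroid plexus, ranged from 2.96 to 3843 CPM in Young Veh (median 1706) and from 66.3 to 3058 CPM in Young PF4 (median 2066). This list is where the data bound an effect of PF4 least.

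Fibroblast markers, expressed in the meninges, were lower by estimate in 9 of 11 genes, with a median of -0.20, and 0 were called. Ptgds, prostaglandin D2 synthase, made by meningeal fibroblasts and by oligodendrocytes, had the largest absolute log2 fold change of any gene with a mean of at least 5 log2 CPM. It ranged from 336 to 1974 CPM in Young Veh (median 670) and from 185 to 1321 CPM in Young PF4 (median 582), and its log2 fold change of -0.39 had a 95% interval from -1.13 to 0.34. The groups overlapped over most of their range. The fibroblast median was -0.06 without Young Veh replicate 3, -0.30 without Young PF4 replicate 4 and -0.36 with limma-voom. It took the other sign, 0.05, with library number as a covariate, in 1 of 38 alternative settings. The 5 tested markers of perivascular macrophages, which sit beside the same vessels, were all lower by estimate with a median of -0.09. That median was -0.21 without Young PF4 replicate 4, -0.02 without Young PF4 replicate 12 and 0.14 with library number as a covariate, the only 1 of 38 settings with the other sign.

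Markers of the adjoining thalamus had a median of 0.19, which rested on Young PF4 replicate 8, 1 of the 3 libraries below 5000000 counted reads. Tcf7l2, a transcription factor of thalamic neurons, was at 154 CPM in that library, and at 23.5 CPM or more but at most 45.1 CPM in every other young library. Prkcd, a protein kinase C of the same neurons, was at 185 CPM there, and at 63.8 CPM in the next highest library. Without that library the thalamus median was -0.08, and the log2 fold changes of Tcf7l2 and Prkcd, 0.23 and 0.27 with it, were -0.08 and -0.07. With library number as a covariate, and that library kept, the median was 0.08.

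Of 5 red blood cell markers, 2 were tested. Hbb-bs, an adult β-globin, ranged from 0.164 to 1.31 CPM in Young Veh (median 0.564) and from 0 to 7.27 CPM in Young PF4 (median 0.377). The highest value came from Young PF4 replicate 3, which held 113 reads of it. Its log2 fold change was 1.33 (95% interval 0.32 to 2.35, unadjusted p = 0.00845 from edgeR's quasi-likelihood test), and 0.37 without that library. Alas2, the first enzyme of heme synthesis in erythroid cells, had a log2 fold change of -0.25 (95% interval -0.59 to 0.08). Of 13 platelet markers, 4 were tested with a median of -0.00, and Ppbp, a chemokine stored with PF4 in platelets, had 0 reads over the Young Veh mice and 3 over the Young PF4 mice. Gp1bb, 1 of the 4, had 19611 reads over the young libraries. The genes it overlaps on the same strand had 133668, so its reads cannot be told from theirs. None of the 10 lymphocyte markers had enough reads to be tested.

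The lists of cell maintenance gave medians close to that of all genes. Of 73 tested cytosolic ribosomal protein genes, 40 were higher and 33 lower by estimate, with a median of 0.01. Rps12, a protein of the small subunit, was the member with the smallest p and ranged from 4.31 to 6.52 CPM in Young Veh (median 5.28) and from 2.46 to 5.47 CPM in Young PF4 (median 4.49), with a log2 fold change of -0.24 (95% interval -0.44 to -0.03, unadjusted p = 0.0279 from edgeR's quasi-likelihood test). In Rps12 5 Young PF4 mice lay below every Young Veh mouse. Reads of ribosomal protein genes can be shared with their many processed pseudogenes, and how the counting treated such reads is not given in the sources used here. Of 76 tested nuclear genes of the respiratory chain, 28 were higher and 48 lower by estimate with a median of -0.01. Atp5l, a subunit of ATP synthase, ranged from 11.3 to 17.7 CPM in Young Veh (median 14.04) and from 10.9 to 13.7 CPM in Young PF4 (median 12.5). All 12 Young PF4 mice lay below the Young Veh median, and the log2 fold change was -0.18 (95% interval -0.32 to -0.04, unadjusted p = 0.0130 from edgeR's quasi-likelihood test). Atp5l, with 3619 reads over the young libraries, overlaps the antisense Gm30934, with 1321, and without strand their reads cannot be told apart.

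Of 13 mitochondrial genes of the respiratory chain, 8 were tested, with a median of 0.03. The others were mt-Co2, mt-Co3, mt-Atp6 and mt-Atp8, listed at 0 reads in every young library, and mt-Nd4l, with 1 read in all. Every cell uses these genes, so the zeros cannot be read as levels, and how the counting treated their reads is not given in the sources used here. Of 37 tested proteasome subunits, 27 were lower by estimate with a median of -0.02. The medians were -0.01 for 13 tested ER chaperones and genes of the unfolded protein response, -0.03 for 10 cytosolic heat shock chaperones, -0.03 for 19 cholesterol synthesis genes and 0.02 for 15 antioxidant and metal-binding genes. They were -0.01 for 12 glucocorticoid target genes, which respond to stress hormones, -0.01 for 16 circadian clock genes and 0.04 for 6 nuclear long noncoding RNAs. With library number as a covariate the median took the other sign for the mitochondrial genes (-0.03), the proteasome (0.03) and the noncoding RNAs (-0.02). The lists in this paragraph held 0 called genes and 0 at an unadjusted p below 0.05 in edgeR's test. Over all 53 lists, the 95% interval of the score difference lay within 0.25 for 42 and within 0.5 for 49, and reached past 0.5 for 4.

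The genes with the smallest p for PF4 in aging mice were next set beside their values in young mice. These 10 genes were chosen by the comparison of Aging PF4 (n = 10) with Aging Veh (n = 12), so their values in aging mice describe the choice, and only the young values are new. In that comparison 6 of 17778 genes passed the quasi-likelihood test of edgeR (Benjamini-Hochberg adjustment), and 1102 (6.20%) had an unadjusted p below 0.05. The aging log2 fold changes of the 10 genes lay between -0.29 and 0.25. Their young log2 fold changes lay between -0.05 and 0.04, and for each of the 10 the young 95% interval did not include the aging estimate.

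Akap11, an anchoring protein for protein kinase A, ranged from 264 to 312 CPM in Young Veh (median 282) and from 261 to 305 CPM in Young PF4 (median 278). The ranges nearly coincided. Its young log2 fold change was -0.01 with a 95% interval from -0.07 to 0.05, against an aging estimate of -0.17. Dlg2, a scaffold of NMDA receptors, had young and aging log2 fold changes of 0.04 (95% interval -0.07 to 0.15) and -0.29. Id2, an inhibitor of basic helix-loop-helix factors, had values of -0.00 (95% interval -0.10 to 0.09) and 0.25. Plec, the cytoskeletal linker plectin, had the lowest young estimate of the 10, -0.05 (95% interval -0.14 to 0.03), against -0.25. Kalrn, kalirin, a guanine nucleotide exchange factor of dendritic spines, had a young log2 fold change of -0.01 (95% interval -0.10 to 0.08), against -0.22.

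The young intervals of 4 more, Arfgap3, Zfp106, Sec16a and Tmem106b, lay between -0.09 and 0.14. Whether young and aging mice differed was tested over all genes as the difference of the PF4 effects in the same edgeR fit. That test called 0 genes after Benjamini-Hochberg adjustment, with a smallest adjusted p of 0.762 and 707 genes (3.98%) at an unadjusted p below 0.05, and DESeq2 called 0. The young intervals thus bound the effect in young mice, while a difference between ages was not shown for any single gene.

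**Figure D5:**
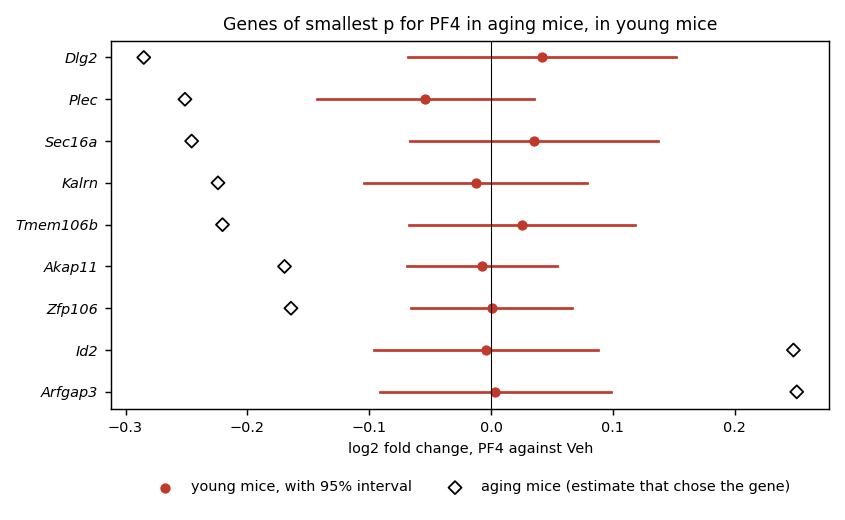
Log2 fold change of PF4 against Veh (horizontal axis) for 9 of the 10 genes with the smallest p for PF4 in aging mice, with the young estimate and its 95% interval in red and the aging estimate, which chose the genes, as an open diamond. The young estimates lie between -0.05 and 0.04 and none of their intervals reaches the aging estimate.

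The 10 genes with the smallest unadjusted p in young mice were, in order, Gm37769, Gm48206, Akr1b3, Gm15601, Enpep, Usp18, Gm38192, Klhl25, Gm44708 and Fkbp7. Of these 0 were called, 9 were lower and Gm44708 was higher with PF4 by estimate, and all kept their sign under every alternative in which they were tested. The 4 of them with gene models of the unsettled type TEC in GENCODE M21 lie within longer protein-coding genes. Gm37769 lies on chromosome 1 at 68711037 to 68713405 (GRCm38, minus strand), within Erbb4, a neuregulin receptor gene on the same strand. It ranged from 0.916 to 2.64 CPM in Young Veh (median 2.03) and from 0 to 1.53 CPM in Young PF4 (median 0.846), with 8 of 12 Young PF4 mice below every Young Veh mouse. Its log2 fold change was -1.03 (standard error 0.24, 95% interval -1.51 to -0.54), with an unadjusted p of 5.85e-05 and an adjusted p of 0.99996 in the quasi-likelihood test of edgeR (Benjamini-Hochberg adjustment). Gm48206, on chromosome 10 at 105340249 to 105342314 within Tmtc2 but on the other strand, had a log2 fold change of -1.01 (95% interval -1.56 to -0.45). Over the young libraries Gm37769 had 397 reads and Gm48206 had 250, and reads of their host genes cannot be told from theirs.

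Akr1b3, aldose reductase, the first enzyme of the polyol pathway that turns glucose into sorbitol, lies on chromosome 6 at 34302434 to 34317478. It ranged from 6.82 to 11.5 CPM in Young Veh (median 8.16) and from 5.09 to 8.36 CPM in Young PF4 (median 6.75). In 7 of 12 Young PF4 mice Akr1b3 was below every Young Veh mouse, and its log2 fold change was -0.30 (95% interval -0.46 to -0.14). Enpep, glutamyl aminopeptidase, which cleaves angiotensin II on pericytes, ranged from 1.77 to 4.87 CPM in Young Veh (median 2.59) and from 0.782 to 3.27 CPM in Young PF4 (median 1.97), with a log2 fold change of -0.48 (95% interval -0.77 to -0.19). It was -0.29 with library number as a covariate. Fkbp7, a prolyl isomerase of the endoplasmic reticulum, had a log2 fold change of -0.41 (95% interval -0.69 to -0.13), and Klhl25, an adaptor of a ubiquitin ligase, one of -0.27 (95% interval -0.44 to -0.09). Gm15601, annotated as antisense to Ddhd1, had a log2 fold change of -0.27 (95% interval -0.42 to -0.11), and 2979 reads over the young libraries, against 18971 on the genes it overlaps. Gm38192, which lies within Pigb, had a log2 fold change of -0.45 (95% interval -0.73 to -0.17), and Gm44708 one of 0.36 (95% interval 0.12 to 0.60).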

How the data were processed

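Hippocampal RNA from 25 young mice (13 Young Veh, 12 Young PF4) was analysed within a table of 47 libraries. Per the labels, libraries were unstranded Smart-Seq2 and Nextera XT preparations. According to the submitters' processing notes, the authors' tools were Trim Galore (0.3.7), STAR (2.5.3a) and DESeq2, and the build was GRCm38. The deposited values are raw counts of reads per gene for 35486 genes, and the counter and its annotation are not given in the sources used here. Libraries of very low coverage had been excluded by the authors.

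Counts were fitted with edgeR 4.0.16 (R 4.3.3), using its quasi-likelihood test on 4 groups (age by treatment), TMM and filterByExpr, which kept 17778 genes. Groups came from the labels. The threshold for a call was 0.05 after Benjamini-Hochberg adjustment. Intervals of 95% used the standard error of that fit, and the log2 CPM of a list score a prior count of 2. Score intervals used the SD pooled over both groups and no covariate. The permutation tests used 100000 resamples. The steps were tested on simulated data. P-values set a group difference against the spread between these mice. Total counts from 2242879 to 19508854 set the precision of genes with few reads.

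Named were the 10 genes of smallest p, Pf4, Kl, Akap11 and the tested NMDA and AMPA receptor subunits, up to 3 members of smallest p and the highest member of each list, the 10 genes of smallest p in aging mice, the 5 of largest absolute log2 fold change at 5 log2 CPM or more, and defining markers. Some that meet the rule are not reported here. Ifit3, Bst2, Prox1 and Wfs1 are named for their promoter letters or as markers, and members that were not tested are named with their reads. The members, lists and settings were chosen with earlier results of these data known. Promoters came from RefSeq (GRCm38.p6) and gene positions from GENCODE M21 (GRCm38), which held 17666 of the symbols tested.

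The alternatives were DESeq2 1.42.0, limma 3.58.1 (voom with sample weights), DESeq2 size factors, 2 other count filters, the young libraries alone, a replicate block, 5 covariates (library number, age in months, choroid plexus score, first surrogate variable from sva 3.50.0, log2 total count), the libraries below 5000000 counts left out, and each of the 25 young libraries left out. No young libraries held matching counts.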

Additional observations from a re-analysis of the deposited data

How the results depend on the processing

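The count of genes called stayed at 0 under each of the 13 alternatives and with each of the 25 young libraries left out. Genes at an unadjusted p below 0.05 numbered 213, 465 with limma-voom, 887 with no count filter, and from 207 to 352 with 1 young library left out, the highest without Young Veh replicate 4. The share of intervals within 0.5 on the log2 scale was 85.0%, 54.6% with DESeq2 and 63.3% with no count filter, where 27514 genes were fitted, many of them with few reads, and from 84.0% to 84.9% with 1 young library left out. Lists with a median within 0.1 numbered from 47 to 50, and 45 to 47 lists had a score difference within 0.1. The median of all genes moved by less than 0.01 under any alternative.

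Replicate numbers did not pair the samples: same-numbered PF4 and Veh mice correlated at -0.19 to 0.55 over 12 pairs, 4 of which were above 0.1, and 1 PF4 library correlated best with its own number. The fit with the replicate block called 0 genes, had 225 at an unadjusted p below 0.05 and placed 84.9% of intervals within 0.5.

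Of the 214 genes that met the naming rule, 49 had the other sign with library number as a covariate (young libraries alone), which differed between the groups, 30 without Young Veh replicate 4, 26 with limma-voom and 20 without the 8 libraries below 5000000 counts. None of these was called in either fit. The red blood cell median, 0.54 over 2 genes, was -0.25 wherever Hbb-bs fell below the count filter. Depth limits low genes most: the 25% of genes with the lowest levels held 201 of the 240 genes whose interval reached past 2-fold.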
